A study of Homo sapiens with 20 samples.

Results

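The m6A peaks of 10 genes of the Hippo pathway were examined in cisplatin-sensitive and cisplatin-resistant bladder cancer cells. The genes are the kinases LATS1 and LATS2, the scaffolds AMOTL1 and AMOTL2, the coactivators YAP1 and WWTR1 (the gene of TAZ), the transcription factors TEAD1 and TEAD4, and the YAP target genes CCN1 and CCN2. They were chosen by name. A peak was counted for a gene when its summit lay in an exon of that gene in GENCODE on hg38. This gave 350 of 231465 peaks in 10 libraries, and these peaks fell in 51 of 43676 merged regions, for 10 of the 13976 genes with an exonic peak. T24 is an established human bladder cancer cell line, labelled wild type, and T24R2 is its cisplatin-resistant derivative, selected by stepwise exposure of T24 to cisplatin and cultured with the drug. T24R2 is thus a single derived line, and the lines differ in selection history and in drug during culture alike. Both were harvested after 3 days of confluence. Fragmented RNA was pulled down with an antibody against m6A (MeRIP-seq), with 5 pull-down and 5 input libraries per line. The inputs were used here only through the authors' peak calls, which set each pull-down against its input. The labels do not say that the 5 samples of a line came from separate cultures, so p-values may measure technical spread alone.

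N6-methyladenosine (m6A) is a methyl mark on internal adenosines of mRNA. It is written mainly in DRACH motifs (where D stands for A, G or T, R for A or G, and H for A, C or T), and it is known to be dense near stop codons and in long internal exons. In the Hippo pathway a kinase cascade ends in LATS1 and LATS2, which phosphorylate YAP1 and TAZ and keep them out of the nucleus. Angiomotin-like proteins bind YAP1 at junctions and in the cytoplasm. When the kinases are inactive, YAP1 and TAZ enter the nucleus, bind TEAD factors and raise target genes such as CCN1 and CCN2, which encode secreted matrix-associated proteins. LATS2 and AMOTL2 are themselves known as YAP targets.

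The lists held 17203 to 22901 peaks in T24 and 22671 to 33120 in T24R2, and the longest list was that of T24R2 replicate 5. The files hold no read counts, so the depth of the libraries is unknown. The 10 genes had 28 to 38 peaks per library in T24 (34.4 ± 4.28, SD, n = 5) and 27 to 46 in T24R2 (35.6 ± 6.88, SD, n = 5). Per 1000 peaks of the same library this was 1.69 ± 0.195 for T24 and 1.38 ± 0.132 for T24R2 (SD over 5 libraries each). A peak needs both the transcript and its methylation, so a difference in RNA level and a difference in methylation cannot be told apart where only the presence of a peak is compared. Fold enrichment is set against the input, but RNA levels were not examined here. Whether differences in fold enrichment follow RNA level was not tested. Of the markers checked, exonic peaks were present for 3 of 7 urothelial luminal genes (none of them in all 10 libraries), 1 of 5 basal, 3 of 5 mesenchymal, 1 of 4 leukocyte and 2 of 3 endothelial genes. CD44 of the basal list, CDH2 and ZEB1 of the mesenchymal list and PECAM1 and CDH5 of the endothelial list had one in all 10 libraries, whereas UPK1B, UPK2, UPK3A and KRT20 had none in any.

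Most of the 10 transcripts carried a fixed set of regions in both lines, with further regions in a few libraries. A total of 22 of the 51 regions had an exonic summit in all 10 libraries, 21 had one in 2 to 9 libraries and 8 in a single library. Counting any peak that overlapped the region, 24 regions (47.1%) were called in all 10 libraries, against 29.6% of the 29269 exonic regions of all genes, and 7 (13.7%) in a single library, against 21.6%. Every gene except WWTR1 had at least 1 region with an exonic summit in all 10 libraries. The regions of each gene are numbered below from the 5′ end of the transcript.

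**Figure D1:**
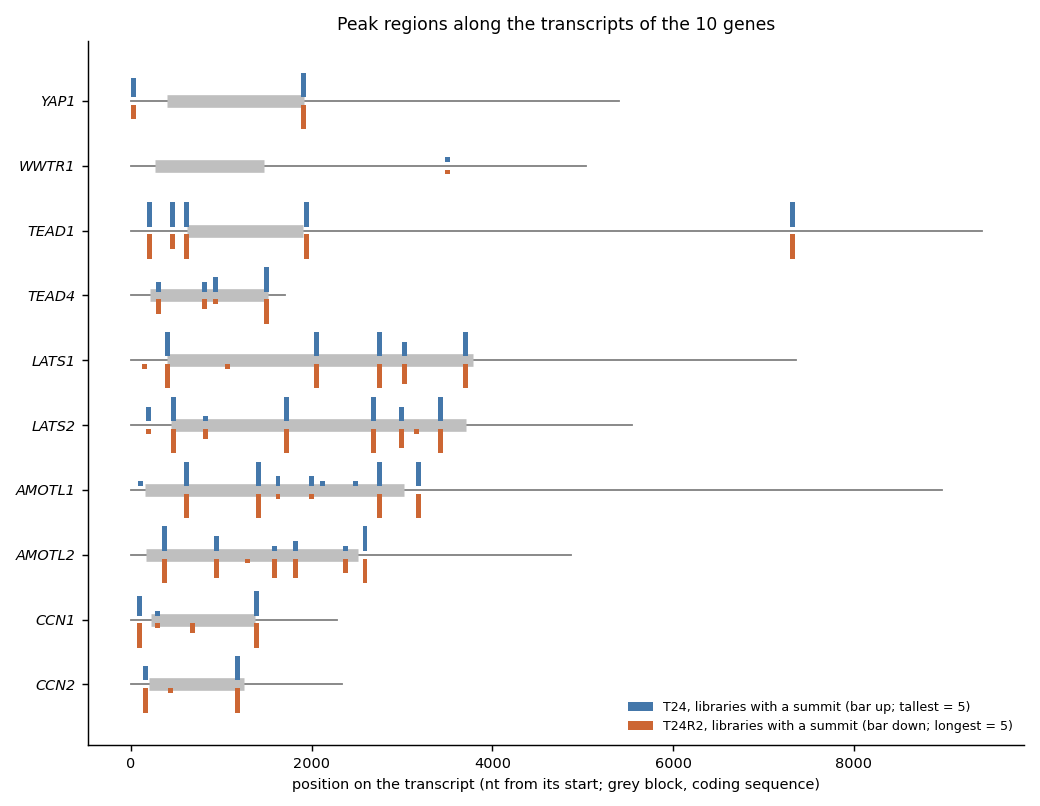
Map of the regions along the main transcript of each gene, with position in nt from the transcript start on the x axis and the coding sequence as a grey block. Bars up (T24) and down (T24R2) give the number of libraries, 5 at most, with a summit in the exon. LATS1 and LATS2 carry full bars at matching places of the coding sequence, and WWTR1 has a single pair of 1-library bars; the first region of TEAD4 is not drawn because its median summit lies outside the main transcript.

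LATS1 and LATS2 encode the last kinases of the cascade. They held 7 regions and 50 peaks in LATS1 (gene on chromosome 6, minus strand, 8 exons) and 8 regions and 69 peaks in LATS2 (chromosome 13, minus strand, 8 exons). Most of the regions fell in matching exons, and LATS2 also held regions in exons 3 and 7, where LATS1 had none. These had a summit in 1 T24 and 2 T24R2 libraries (exon 3) and in 1 T24R2 library (exon 7). Exons 1, 2, 4, 5, 6 and 8 of both genes held a region, and in both genes the regions with a summit in all 10 libraries were those of exons 2, 4, 5 and 8. Exon 5 was 583 nt and exon 6 was 183 nt long in both. Exon 4 was long in both, with 1514 nt in LATS1 and 1424 nt in LATS2. The windows around the DRACH motif nearest to the median summit are shown for exons 5 and 6, where the paralogues could be set base against base (hg38, minus strand, DRACH in capitals, the adenosine at the centre of the 21 bases).
LATS1 exon 5, chr6:149680110-149680130: tttgtaatGGACTacattcct
LATS2 exon 5, chr13:20983459-20983479: tttgtgatGGACTacatccct
LATS1 exon 6, chr6:149676655-149676675: cgatgtggAGACAgactgaag
LATS2 exon 6, chr13:20981566-20981586: cggtgtggGGACAggctgaag
Counted from the first base of the window and from LATS1 to LATS2, the exon 5 windows differed by A6G and T18C and shared 19 of 21 bases (90.5%). The exon 6 windows differed by A3G, A9G and A15G and shared 18 of 21 (85.7%), and A9G changed the first letter of the motif while leaving a DRACH in both. Among the other pairs of LATS1 and LATS2 windows the highest match was 11 of 21 bases. The summits were not equally close to these motifs. In exon 5 of LATS1 the summit lay within 50 nt of the marked adenosine in 7 of 10 libraries and at most 64 nt away. In exon 5 of LATS2 it lay within 50 nt in 4 of 10 libraries and more than 300 nt away in 4 others, over a span of 455 nt. In exon 6 it lay within 50 nt in 5 of 8 libraries in LATS1 and in 4 of 8 in LATS2.

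The exon 5 region had an exonic summit in 10 of 10 libraries in both genes, and the exon 6 region had one in 3 T24 and 4 T24R2 libraries in both. Counting any overlapping peak, exon 6 was called in 4 T24 and 4 T24R2 libraries in LATS1 and in 3 and 5 in LATS2. Exon 1 differed more, with 0 T24 and 1 T24R2 libraries in LATS1 and 3 and 1 in LATS2. In exon 5 the fold enrichment of pull-down over input in LATS1 was 3.76, 13.4, 9.47, 11.5 and 6.91 in T24 replicates 1 to 5 and 8.45, 10.8, 9.52, 7.49 and 14.2 in T24R2 replicates 1 to 5. In LATS2 it was 7.88, 4.5, 11.8, 5.04 and 7.97 in T24 and 4.24, 12.1, 6.48, 12.7 and 10.9 in T24R2. The LATS2 values do not all come from the same place. The 4 libraries with the summit more than 300 nt from the motif were T24 replicates 2 and 4 and T24R2 replicates 1 and 3. They had 4.5, 5.04, 4.24 and 6.48, and the others had 7.88 to 12.7. The lines overlapped in both genes, with log2 differences (T24R2 minus T24) of 0.16 ± 0.31 in LATS1 and 0.19 ± 0.31 in LATS2 (limma estimate ± SE).

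In exon 4 the paralogues differed in their values. The LATS2 region (chr13:20987913-20989365, coding sequence) had a fold enrichment of 9.35, 10.3, 9.3, 9.82 and 8.02 in T24 and 16.7, 18.5, 11.8, 21.2 and 14.5 in T24R2. Each T24R2 library exceeded each T24 library. The values are those of the strongest peak in a region of 1453 nt and do not all come from the same place. Its summit lay at 20988156 and 20988129 in T24 replicates 1 and 2 and at 20988108 in T24R2 replicate 5. In the other libraries it lay between 20988500 and 20988595. Whether the lines differ at either place alone was not tested. The log2 difference was 0.70 ± 0.23 (95% interval 0.23 to 1.18), which did not pass adjustment over the 9577 regions tested (limma unadjusted p = 0.00535, adjusted p = 0.144). On the −log10 q of the same peaks the lines were less apart (limma adjusted p = 0.604), and over all alternatives the adjusted p ranged from 0.108 to 0.604. In LATS1 the exon 4 region (chr6:149683123-149684379), the strongest of that gene, had 10.9, 12.1, 12, 10.9 and 10.0 in T24 and 9.41, 12.1, 8.43, 10.8 and 13.4 in T24R2. Its lines overlapped, with a log2 difference of -0.16 ± 0.22 (95% interval -0.62 to 0.30, limma adjusted p = 0.817). Whether LATS1 and LATS2 differed from each other in this change was not tested.

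The strongest region of LATS2 was that of exon 2 (chr13:21045711-21046328), whose median summit lay 21 nt into the coding sequence. Its fold enrichment was 16.9, 10.5, 9.47, 11.5 and 6.52 in T24 and 18.0, 18.2, 11.8, 17.6 and 14.5 in T24R2. In rank, this put it at the 75.0 ± 17.3 percentile of its library in T24 and the 93.9 ± 3.45 percentile in T24R2 (mean and SD over 5 libraries). The lines overlapped through T24 replicate 1, and the log2 difference of 0.50 ± 0.25 did not pass the threshold before or after adjustment (limma unadjusted p = 0.0585, adjusted p = 0.380). The matching region of LATS1 exon 2, whose median summit lay 14 nt into the coding sequence, had a log2 difference of -0.04 ± 0.35.

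**Figure D2:**
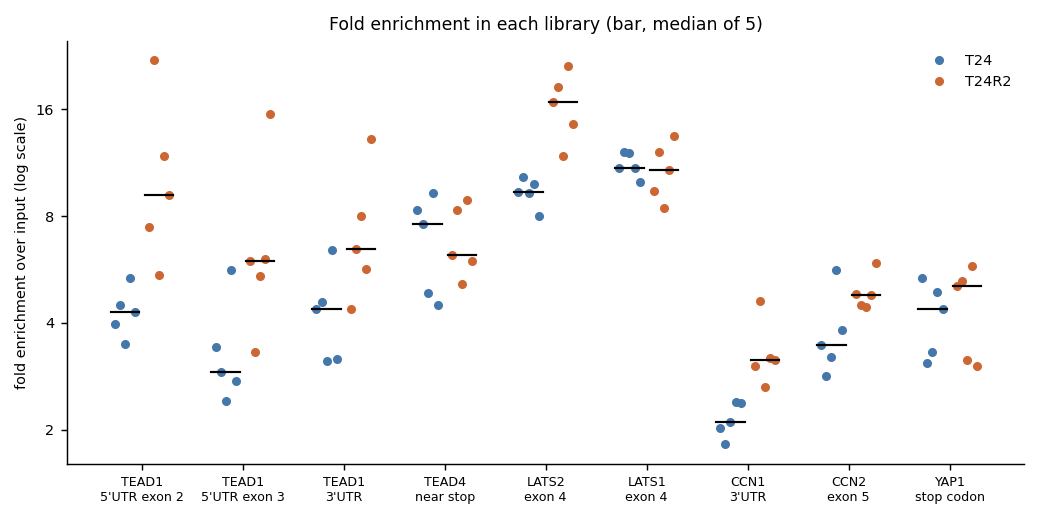
Fold enrichment over input (y axis, log scale) of 9 regions in each of the 5 T24 and 5 T24R2 libraries, with a bar at the median. The lines do not overlap in TEAD1 5′UTR exon 2, LATS2 exon 4 and CCN1, and they overlap in the other 6 regions shown.

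AMOTL1 and AMOTL2 encode angiomotin-like proteins. AMOTL1 (chromosome 11, plus strand) held 9 regions and 49 peaks, and AMOTL2 (chromosome 3, minus strand) held 7 regions and 45 peaks. Both had a region with a summit in all 10 libraries near the start of the 3′UTR, with its median summit 157 nt past the stop codon in AMOTL1 and 80 nt past it in AMOTL2, and both had another in a long coding exon close to the 5′ end (922 nt in AMOTL1, 795 nt in AMOTL2). AMOTL1 had 4 regions with a summit in all 10 libraries and AMOTL2 had 2.

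The strongest region of AMOTL1, in exon 4 (chr11:94821407-94821796), had a fold enrichment of 4.85, 4.73, 14.8, 5.65 and 5.5 in T24 and 5.16, 11.4, 7.12, 10.8 and 9.96 in T24R2. T24 replicate 3 stood far above the other T24 libraries, and the lines overlapped (log2 difference 0.32 ± 0.30, limma adjusted p = 0.698). Exon 12 of AMOTL1 (chr11:94869126-94869467) had the lowest difference of all, -0.42 ± 0.30 (limma adjusted p = 0.583), and the 3′UTR region of the same transcript had 0.42 ± 0.30 (adjusted p = 0.582). The strongest region of AMOTL2, at the start of the 3′UTR (chr3:134356230-134357962), had 4.26, 10.9, 10.2, 5.61 and 5.24 in T24 and 5.95, 6.63, 7.25, 10.8 and 7.95 in T24R2, with a difference of 0.07 ± 0.30 (limma adjusted p = 0.949).

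In the sparse regions of the scaffolds the lines differed by a few libraries at most. In AMOTL2, exons 6, 7 and 9 had a region in 1, 2 and 1 T24 libraries and in 4, 4 and 3 T24R2 libraries. Exon 3 of AMOTL2 had one in 3 T24 and 4 T24R2 libraries, and exon 4 in 0 and 1. In AMOTL1, the regions of exons 5 and 8 were called in 2 T24 libraries and 1 T24R2 library each, and those of exons 1, 9 and 11 in 1 T24 library and no T24R2 library. None of these had an unadjusted p under 0.05 in Fisher's exact test (lowest p = 0.206, for AMOTL2 exon 6), where 9.21% of all regions did. AMOTL2 had 3.8 ± 1.48 exonic peaks per T24 library and 5.2 ± 1.48 per T24R2 library (mean and SD, n = 5, exact permutation p = 0.238), and AMOTL1 had 5.4 ± 1.14 and 4.4 ± 0.894 (exact permutation p = 0.246).

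YAP1 (chromosome 11, plus strand, 9 exons) carried a region in the 5′UTR and another at the stop codon, with no exonic summit between them. The region at the stop codon (chr11:102229641-102230203) had its median summit 3 nt before the end of the stop codon and was called in all 10 libraries, with a fold enrichment of 5.36, 3.08, 3.32, 4.9 and 4.38 in T24 and 5.08, 5.25, 3.14, 5.8 and 3.02 in T24R2. The region in the 5′UTR (chr11:102110077-102110643) had 7.76, 5.52, 6.65, 5.49 and 4.61 in T24 and 3.02, 9.79, 4.98, 9.05 and 8.77 in T24R2, with an exonic summit in 4 T24 and 3 T24R2 libraries. In T24 replicate 1 and T24R2 replicates 2 and 4 the summit of that peak fell outside the annotated exon. Neither region differed between the lines beyond the replicates, with log2 differences of -0.03 ± 0.25 (95% interval -0.55 to 0.48) and 0.04 ± 0.28 (-0.55 to 0.63), respectively (limma adjusted p = 0.970 and 0.967). An exon of the gene ENSG00000254422 also lay at the stop codon region. The DRACH nearest to that summit lay just past the stop codon, and is shown as the marked stretch of the coactivator (hg38, plus strand, DRACH in capitals).
YAP1 stop codon region, chr11:102229944-102229964: cctcaggcAGACTgaattcta

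WWTR1, which encodes the other coactivator TAZ, was the gene with the fewest peaks. Its only region (chr3:149518733-149518891, minus strand, 2037 nt past the stop codon in the 3′UTR) was called in T24 replicate 4 with a fold enrichment of 2.25 and in T24R2 replicate 5 with 4.27. These libraries held the longest list of their line. The other 8 libraries had no exonic peak of WWTR1, which says only that none was called at the depth of these libraries.

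TEAD1 and TEAD4 encode DNA-binding partners of YAP1 and TAZ. TEAD1 (chromosome 11, plus strand, 13 exons) held 5 regions, and all of them lay in untranslated sequence. There was 1 in each of the first 3 exons, of which the third had its median summit 8 nt before the start codon, 1 in the 3′UTR 39 nt past the stop codon and 1 in the distal 3′UTR 5415 nt past it. Each was called in all 10 libraries. TEAD4 (chromosome 12, plus strand, 13 exons) also held 5 regions but had only 1 in all 10 libraries, at the end of the coding sequence, 8 nt before the end of the stop codon.

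The TEAD1 transcript held 3 of the 5 member regions with an unadjusted p under 0.05 in limma. In 5′UTR exon 2 (chr11:12675286-12675572) the fold enrichment was 3.98, 4.48, 3.49, 5.35 and 4.29 in T24 and 7.45, 22.0, 5.45, 11.8 and 9.17 in T24R2. The lowest T24R2 library exceeded the highest T24 library. The log2 difference of 1.12 ± 0.29 (95% interval 0.51 to 1.73) was the largest of the members and did not pass adjustment (limma unadjusted p = 0.000907, adjusted p = 0.0679, range of the adjusted p over the alternatives 0.0524 to 0.236). In T24R2 replicates 2 and 4, the highest of the 10, the summit of that peak lay outside the exon. The remaining 3 T24R2 libraries, with values of 7.45, 5.45 and 9.17, were also above every T24 library.

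In 5′UTR exon 3 of TEAD1 (chr11:12764076-12764393) the fold enrichment was 3.43, 2.91, 2.41, 5.65 and 2.75 in T24 and 5.99, 3.32, 5.42, 6.04 and 15.5 in T24R2. In the proximal 3′UTR (chr11:12937084-12937346) it was 4.38, 4.58, 3.12, 6.42 and 3.16 in T24 and 4.39, 6.45, 7.99, 5.67 and 13.2 in T24R2. The lines overlapped in both, and T24R2 replicate 5, the longest list, was the highest library in both. The log2 differences were 0.85 ± 0.32 and 0.65 ± 0.29 (limma unadjusted p = 0.0140 and 0.0353, adjusted p = 0.209 and 0.308). Without T24R2 replicate 5 they were 0.56 and 0.45, and neither was below 0.05 before adjustment (limma adjusted p = 0.401 and 0.534). The proximal 3′UTR was also no longer below 0.05 before adjustment without T24 replicate 3 (difference 0.52), T24 replicate 5 (0.58) or T24R2 replicate 3 (0.55). On log2 of −log10 q its difference was 0.15 and that of exon 3 was 0.82, and neither passed before adjustment (limma adjusted p = 0.915 and 0.424). The first exon of TEAD1, the strongest region of the gene, had 5.22, 5.87, 10.5, 10.6 and 8.61 in T24 and 7.24, 8.66, 9.98, 10.4 and 6.1 in T24R2, a difference of -0.01 ± 0.28 (adjusted p = 0.995), and the distal 3′UTR had 0.13 ± 0.27 (adjusted p = 0.877).

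TEAD4 held the only member region past the unadjusted threshold of presence. This region (chr12:2959869-2960335) was called in no T24 library and in 5 of 5 T24R2 libraries, with a fold enrichment of 7.71, 12.7, 9.36, 3.67 and 7.23 and a rank at the 62.5, 83.6, 77.8, 7.06 and 56.5 percentile of the 5 lists. All 5 summits lay in the second exon of another protein-coding transcript of TEAD4 (chr12:2959948-2960353), upstream of its start codon, and 1 of them lay in the shorter second exon of the main transcript (chr12:2959948-2960040). Fisher's exact test gave p = 0.00794, the smallest that 5 against 5 libraries allow, and adjusted p = 0.195 over the 43676 regions. With 17203 peaks kept in every list, 3 T24R2 libraries and no T24 library had the region (Fisher's exact p = 0.167), so the call was lost when the lists were equal in length.

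The DRACH windows nearest to the summit are shown for the 2 TEAD regions in which the lines stood apart and for the coding start of TEAD4, where the motif fell on the median summit itself (hg38, plus strand, DRACH in capitals).
TEAD1 5′UTR exon 2, chr11:12675469-12675489: gtcagcagAAACAttgtgtcc
TEAD4 second exon of the other transcript, chr12:2960200-2960220: aggggggtGGACActcgggac
TEAD4 coding exon 3, chr12:2994851-2994871: caggcactGGACAagcccatc
The motif lay 28 nt from the median summit in TEAD1 and 21 nt from it in the T24R2-only region of TEAD4. The coding exon 3 region of TEAD4 was called in 2 T24 and 3 T24R2 libraries, with a fold enrichment of 6.48 and 3.42 in T24 replicates 3 and 4 and of 3.14, 3.34 and 3.32 in T24R2 replicates 1, 4 and 5. The regions of exons 9 and 10 were called in 2 and 3 T24 libraries and in 2 T24R2 libraries each. The region at the end of the coding sequence (chr12:3040299-3041199) had 8.34, 7.59, 4.87, 9.31 and 4.48 in T24 and 6.2, 8.32, 5.16, 8.9 and 5.97 in T24R2. It overlapped fully between the lines, with a log2 difference of -0.07 ± 0.27 (limma adjusted p = 0.940).

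CCN1 and CCN2 encode the secreted target proteins also known as CYR61 and CTGF. Both transcripts have 5 exons and carried the same layout. A region at the end of the coding sequence or just past it, in exon 5, was called in all 10 libraries, a 5′UTR region in exon 1 was called in most of them, and the remaining regions, in exons 2 and 3, were called in 1 or 2 libraries. The 5′UTR region had a summit in 4 T24 and 5 T24R2 libraries in CCN1 and in 3 T24 and 5 T24R2 libraries in CCN2. An exon of LINC01013 also lay at the 5′UTR region of CCN2.

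In CCN1 the exon 5 region (chr1:85582559-85583560, median summit 19 nt past the stop codon) had a fold enrichment of 2.02, 1.82, 2.1, 2.4 and 2.38 in T24 and 3.02, 4.6, 2.64, 3.19 and 3.15 in T24R2. Again the lines did not overlap, and all of the values were low. The log2 difference was 0.52 ± 0.17 (95% interval 0.15 to 0.88) and did not pass adjustment (limma unadjusted p = 0.00725, adjusted p = 0.160, range of the adjusted p over the alternatives 0.0542 to 0.306). In CCN2 the exon 5 region (chr6:131948875-131949570, median summit 69 nt before the end of the stop codon), the strongest of the gene, had 3.46, 2.84, 3.21, 5.63 and 3.82 in T24 and 4.83, 4.5, 4.43, 4.78 and 5.89 in T24R2. T24 replicate 4 overlapped the T24R2 libraries, and the difference was 0.30 ± 0.23 (95% interval -0.17 to 0.77, limma adjusted p = 0.599). The strongest region of CCN1, in the 5′UTR (chr1:85580727-85581117), had 3.66, 5.86, 4.57 and 4.29 in T24 replicates 1, 3, 4 and 5, was not called in T24 replicate 2, and had 3.53, 3.95, 3.71, 4.62 and 6.59 in T24R2. The motif windows of exon 5 are shown for both target genes, since these are the regions that every library held (hg38, CCN1 on the plus and CCN2 on the minus strand, DRACH in capitals).
CCN1 exon 5, chr1:85583063-85583083: gcacacctAGACAaacaaggg
CCN2 exon 5, chr6:131949309-131949329: tgtcccggAGACAatgacatc
Both windows held AGACA, 12 nt from the median summit in CCN1 and 14 nt in CCN2.

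Presence and strength were next read over all members together, to ask whether the resistant line had more, other or stronger m6A peaks on these transcripts. For presence, 1 of 51 regions (1.96%) had an unadjusted Fisher p under 0.05, the TEAD4 region above. Over all 43676 regions the share was 9.21%, with 7.11% called more often in T24R2 and 3.02% called in all T24R2 and no T24 libraries. No member region passed the adjusted threshold, and none did among all regions (0.0%). The members thus held a smaller share of unadjusted calls than the whole list. The comparison is not like for like, since the whole list also holds regions outside exons. Regions called in all 10 libraries cannot pass this test, and they were 47.1% of members, against 29.6% of exonic regions of all genes. With −log10 q of at least 5, AMOTL2 exon 6 joined TEAD4 (0 T24 and 4 T24R2 libraries, Fisher p = 0.0476, adjusted p = 0.549), and with a fold enrichment of at least 4 it was the exon 5 region of CCN2 (1 and 5 libraries, Fisher p = 0.0476, adjusted p = 0.555). With −log10 q of at least 10 the TEAD4 region was left in 2 T24R2 libraries (Fisher p = 0.444), and the single region below 0.05 was CCN1 exon 5 (0 and 4 libraries, p = 0.0476). With equal list lengths the single region was AMOTL2 exon 6 (0 and 4 libraries, Fisher p = 0.0476). The count of 1 thus did not stand for the same region throughout. The share of members stayed below that of all regions in each of these settings, at 2.33% to 4.76% against 7.94% to 8.68%.

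For strength, the 24 member regions called in all 10 libraries were fitted within the 9577 merged regions called in all 10. Of these 9577, 8669 had an exonic summit, so the shares over all regions below include some outside exons. No member passed an adjusted p of 0.05 in limma, where 82 of all regions (0.856%) did. The lowest adjusted p of a member was 0.0679. At an unadjusted p under 0.05 there were 5 members (20.8%), against 14.1% of all regions, and all 5 were higher in T24R2, a direction that 7.7% of all regions took. The higher share of members did not hold in 3 of the alternatives. It was 12.5% against 17.5% on log2 of −log10 q, with 2 of 3 regions higher in T24R2, 11.8% against 13.5% with equal list lengths, and 12.5% against 13.3% without T24R2 replicate 5. The 5 regions are those of TEAD1 5′UTR exons 2 and 3 and proximal 3′UTR, LATS2 exon 4 and CCN1 exon 5. In 3 of the 24 the lines did not overlap on the centred log2 scale (TEAD1 exon 2, LATS2 exon 4 and CCN1 exon 5), against 4.1% of all regions.

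The member differences lay mostly on the T24R2 side of 0. A total of 18 of 24 were above 0, against 51.6% of all regions, and their median was 0.18 on the log2 scale against 0.02 over all regions. The count was lower, 15 of 24, on log2 of −log10 q and also without T24 replicate 1, and it was 21 of 24 without T24R2 replicate 5. Regions of a gene share its transcript, so the 24 are not independent and the count is given as a description. The range was -0.42 to 1.12, and the median SE of a single region was 0.28. In 12 of the 24 regions the size of the difference was below its SE. The values were centred on the median of each library. Without centring the median of all regions was 0.11, 61.9% of them were above 0 and 22 of 24 members were above 0, so 4 members changed sign with the scaling. The 5 named regions kept their direction in each alternative in which they were fitted. These were 19 alternatives for LATS2, 17 for the TEAD1 region with the difference of 1.12 and 15 for each of the others. Of the 5, only LATS2 was fitted with −log10 q of at least 10 or a fold enrichment of at least 4. The CCN1 region and the other TEAD1 regions were also not fitted with −log10 q of at least 5 or equal list lengths. The direction of these regions under those filters was not tested.

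**Figure D3:**
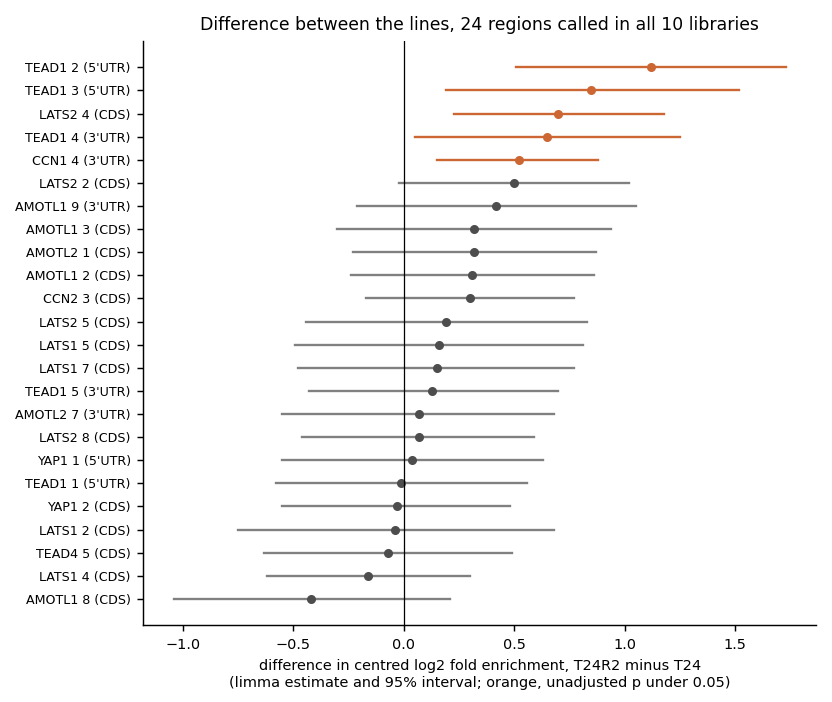
Difference in centred log2 fold enrichment, T24R2 minus T24 (x axis), with its 95% interval from limma, for the 24 regions called in all 10 libraries. The 5 intervals in orange lie above 0 before adjustment, from 0.52 in CCN1 to 1.12 in TEAD1, and the intervals of the other 19 regions include 0.

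The number of exonic peaks per library did not pass the threshold in any of the 10 genes (exact permutation test over all assignments of the libraries), where 13.9% of all genes had an unadjusted p under 0.05 and 0.0% an adjusted one. The lowest member p was 0.238, for AMOTL2. LATS2 had 7.4 ± 0.548 peaks in T24 and 6.4 ± 1.82 in T24R2, and TEAD4 had 2.4 ± 1.14 and 3.2 ± 0.837 (mean and SD over 5 libraries). Counted as exonic bases under peaks, 4 genes had an unadjusted exact permutation p under 0.05, all with more bases in T24R2, against 31.8% of all genes in that direction. TEAD4 had 407 ± 139 bases in T24 and 754 ± 149 bases in T24R2 (mean and SD over 5 libraries, exact permutation p = 0.0159, adjusted p = 0.0693), and CCN2 had 520 ± 106 and 729 ± 107 (p = 0.0159, adjusted p = 0.0693, same test). In CCN1 the values were 682 ± 351 and 1142 ± 209 (exact permutation p = 0.0397), and in AMOTL2 2234 ± 177 and 2656 ± 306 (exact permutation p = 0.0317). No member passed adjustment, which 17.4% of all genes did.

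The genes differed widely in the rank of their peaks within a library. Over the strongest peak of each called region, the median percentile of fold enrichment was 72.7 in LATS2 and 68.7 in LATS1, where 100 would be the strongest peak of a library. AMOTL1 and TEAD4 followed with 42.8 and 43.6, TEAD1 with 35.4, AMOTL2 with 27.1 and YAP1 with 25.6. WWTR1 was at 7.98, CCN2 at 5.80 and CCN1 at 3.80. The kinases thus held peaks in the upper part of the lists and the secreted targets held peaks near the bottom. By the percentile of −log10 q the order was different. CCN1 and CCN2 were at 55.6 and 62.0, close to LATS1 at 62.2, and LATS2 was at 75.3. Since peaks of a gene share its transcript and its libraries, these medians are given as a description.

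**Figure D4:**
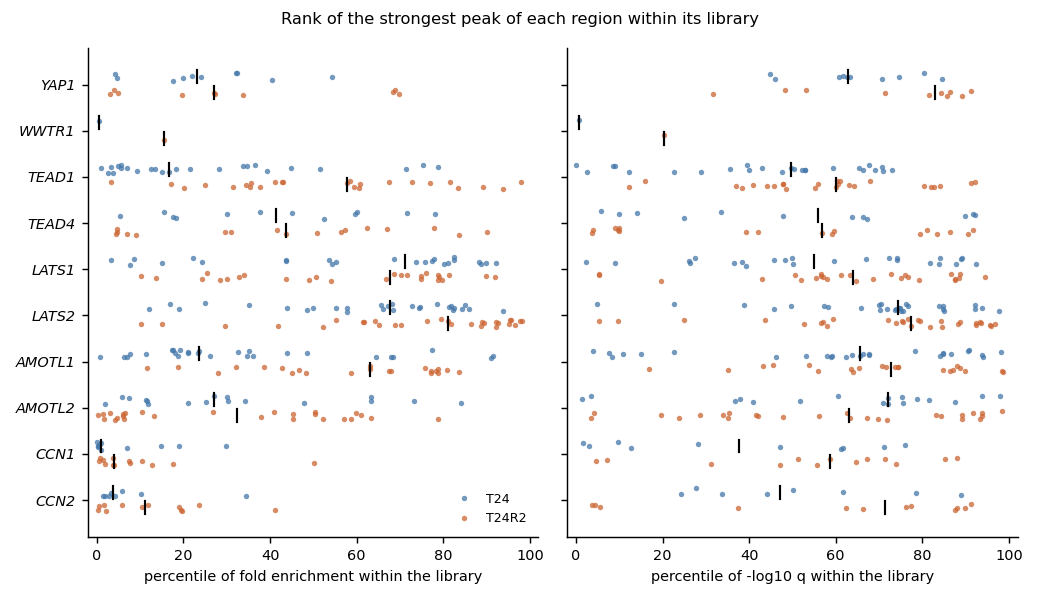
Percentile within the library (x axes) of the fold enrichment (left) and the −log10 q (right) of the strongest peak of each called region, by gene, with T24 above T24R2 and a tick at each median. CCN1 and CCN2 sit near 0 on the left, with medians of 3.80 and 5.80 over both lines, and near the middle on the right, with 55.6 and 62.0.

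By position, 35 of the 51 regions (68.6%) had their median summit in the coding sequence, 9 (17.6%) in the 5′UTR, 6 (11.8%) in the 3′UTR and 1 in an exon of another transcript. The shares over all genes count an exonic region once for each gene with a main coding transcript, 25841 pairs in all. They were 54.3%, 7.6% and 25.4%, with 12.7% in exons of other transcripts. The 5′UTR regions came from LATS1, LATS2, AMOTL1, YAP1, TEAD1, CCN1 and CCN2. Of the 22 regions with a summit in all 10 libraries, 15 were coding, 5 in the 3′UTR and 2 in the 5′UTR. A total of 10 of these 22 lay within 400 nt of the stop codon, against 38.9% of all such regions, and 12 of the 15 coding ones lay in an exon of over 400 nt, against 91.4%. The 3 coding ones in shorter exons were AMOTL1 exons 4 and 12 and the last exon of TEAD4.

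The letters of DRACH were searched within 50 nt of the median summit. The shares over all genes count a region once for each protein-coding or lncRNA gene with an exon at a summit, 31244 pairs in all. The sense strand held a match in 42 of 51 regions (82.4%, against 88.2% of these pairs) and the antisense strand in 33 (64.7%, against 73.2%). Of the 22 regions with a summit in all 10 libraries, 81.8% held a sense match, against 92.6% of such pairs. The stricter GGAC was present in 24 regions (47.1%, against 45.6%) on the sense and in 13 (25.5%, against 26.8%) on the antisense strand. The regions without a sense match included LATS2 exon 4 and TEAD1 5′UTR exons 1 and 3, which says only that these letters are not within 50 nt of the median summit. In LATS2 exon 4 the summits of the 10 libraries spread over 503 nt.

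The wider pathway was read from lists of further genes. Of 22 other Hippo components, 18 had an exonic peak and 13 had a region in all 10 libraries, while STK3, MOB1A, MOB1B and TEAD3 had no exonic peak. Of their 84 regions, 7 (8.33%) had an unadjusted Fisher p under 0.05, 5 of them called more often in T24R2 and 2 in T24, against 9.21% of all regions, and none passed adjustment. Their 32 regions called in all 10 libraries had a median log2 difference of -0.10, with 5 (15.6%, against 14.1% of all regions) at an unadjusted limma p under 0.05, 2 of them higher in T24R2, and none after adjustment. Of 17 further YAP targets, 15 had an exonic peak (not AXL or MYOF) and 11 had a region in all 10 libraries. None of their 45 regions had an unadjusted Fisher p under 0.05. Among 18 of them tested by limma the median was 0.09, with 4 (22.2%, against the same 14.1%) at an unadjusted p under 0.05, 2 of them higher in T24R2, and none after adjustment.

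The 7 regions of the Hippo components are given by name as a description, since their share was no higher than that of all regions. Their genes act upstream of LATS or on YAP1. A region called in no T24 and in all 5 T24R2 libraries lay in the 3′UTR of FRMD6, a FERM-domain scaffold (chr14:51728424-51728706, fold enrichment 4.07 to 4.73), in the 3′UTR of the kinase gene MAP4K4 (chr2:101891517-101891777, 1.93 to 4.34) and in the coding sequence of the kinase gene TAOK3 (chr12:118150963-118151268, 2.6 to 3.4). Each had an exact Fisher p of 0.00794 and an adjusted p of 0.195. Coding regions of the cadherin gene DCHS1 (chr11:6626950-6627442) and of PTPN14 (chr1:214464672-214464980), a phosphatase that binds YAP1, were called in no T24 and 4 T24R2 libraries. The PTPN14 5′UTR (chr1:214551304-214551606) went the other way, with 4 T24 libraries and no T24R2 library. A further PTPN14 region (chr1:214532173-214532408), where an exon of KRT18P12 also lies, was called in 5 T24 libraries and 1 T24R2 library. These 4 regions had an exact Fisher p of 0.0476 and an adjusted p of 0.517, so the PTPN14 transcript held unadjusted differences in both directions.

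The regions whose values ran most like those of TEAD1 5′UTR exon 2 over the 10 libraries were in LTBP2 (Pearson r = 0.974), SIPA1L3 (r = 0.954) and PABPN1 (r = 0.951), out of the regions called in all 10 libraries. These points share the libraries and their peak calling, and the values are given as a description. Their own log2 differences were 0.93, 0.51 and 0.69.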

How the data were processed

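Peak lists of 10 pull-down libraries (5 T24, 5 T24R2) were analysed, with groups and replicate numbers from the sample titles. Per the study's methods and the submitters' processing notes, the authors aligned reads to hg38 with STAR 2.7.0 and GENCODE v39, kept uniquely mapped reads without duplicates with SAMtools 1.10, and called peaks of each pull-down over its input with MACS2 (version 3.0.0a6 in the notes). The deposited values used were, the fold enrichment (a ratio over the local input) and the −log10 q-value. The summit offset was also taken from the deposited lists. Without read counts, the study's tests on reads could not be run, and the number of libraries limits the precision. Peaks were called per library at a fixed q threshold, so whether a weak peak is listed also depends on the unknown depth.

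Peaks were assigned with GENCODE 44 (hg38). All peak ends lay within their chromosomes, and 1793 peaks on contigs not in the reference by name were left out of gene assignment. A summit within an exon of any transcript of a gene counted, and positions are on the MANE Select transcript. The lists carry no strand, so overlapping genes cannot be told apart. A merged region was present in a library when a peak overlapped it by at least 1 bp. Presence was compared by two-sided Fisher's exact test, peaks per gene by two-sided exact permutation over all assignments, and the log2 fold enrichment of the strongest peak by limma 3.58.1 (trend), centred on each library's median over the regions called in all 10 libraries. Adjustment was by Benjamini-Hochberg over all regions or genes. bedtools 2.31.1, Python 3.11.15, scipy 1.17.1 and R 4.3.3 were used. The tests were tested on simulated data. Named in full were regions past an unadjusted Fisher or adjusted limma threshold and the strongest region of each gene by mean percentile; the regions past an unadjusted limma p of 0.05 were chosen after their values were seen. The exon comparison of LATS1 and LATS2 and the choice of sequences were also made after seeing values. The members and lists were chosen with earlier results of these data known.

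Alternatives were −log10 q of at least 5 or 10, fold enrichment of at least 4, 17203 peaks per library, overlap with an exon in place of the summit, 50% cover, a looser rule of presence, no centring, −log10 q in place of fold, percentiles, no trend, bases in place of peaks, leaving out each library, and a replicate block.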

Additional observations from a re-analysis of the deposited data

Results flagged for a closer look

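A total of 7 values are listed here because the highest or lowest library of a line lay far from the other 4 by Dixon's criterion. They came from 70 groups of 5 libraries, and chance marks about 1 group in 20 for continuous values. That rate does not apply to small peak counts with ties, where a single differing library is marked whatever the size of its difference. On the centred log2 scale, LATS2 exon 4 was highest in T24 replicate 2 at 0.41, with the other T24 libraries between -0.01 and 0.08. AMOTL1 exon 4 was highest in T24 replicate 3 at 0.66, with the others between -0.89 and -0.53. In peak counts, YAP1 had 1 exonic peak in T24 replicate 1 and 2 in the other T24 libraries. WWTR1 had 1 peak in T24 replicate 4 and 1 in T24R2 replicate 5 and 0 elsewhere. In T24R2 replicate 5, AMOTL1 had 6 peaks against 4 in the other T24R2 libraries, and CCN2 had 3 against 2. That library holds the longest list, 33120 peaks.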

How the results depend on the processing

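No member passed the adjusted threshold in the strength or peaks-per-gene tests under any alternative run. Of 155 alternative values, 141 kept the count of the main run or the direction of a named log2 difference. A kept direction could still go with a lost unadjusted call, as in the TEAD1 proximal 3′UTR, and a kept count with a different region. For strength and peaks per gene, the count was that of members past adjustment. The count of member regions with an unadjusted Fisher p under 0.05 was 1 and became 2 with −log10 q of at least 5 and with fold enrichment of at least 4, and it ranged from 1 to 2 when libraries were left out in turn (2 without T24 replicate 5 or T24R2 replicate 2, where AMOTL2 exon 6 joined TEAD4). The region called in all libraries of 1 line only (TEAD4) was lost, leaving 0, with −log10 q of at least 5 or 10, fold enrichment of at least 4, equal list lengths, and a cover of at least 50%. The looser rule of 4 of 5 against at most 1 of 5 gave 2 regions (3.92%), with AMOTL2 exon 6, against 10.9% of all regions. Adjusting only over regions called in 4 to 6 libraries gave 1 of 9 member regions (TEAD4, adjusted p = 0.0356), where 1777 of 7969 regions (22.3%) passed, by fewer regions tested. The share of regions with a motif was 56.9% in a window of 25 nt, against 70.9% over all genes, and 47.1% for GGAC, against 45.6%. The unadjusted limma count of 5 ranged from 3 to 6 over the libraries left out, the lowest without T24R2 replicate 5 (12.5%, against 13.3% of all regions). In peaks per gene, where no member had an unadjusted exact permutation p under 0.05, LATS1 and CCN1 did with −log10 q of at least 10 (p = 0.0397 each), CCN2 with fold enrichment of at least 4 (p = 0.0397), LATS2 without T24R2 replicate 3 (p = 0.0317) and AMOTL1 without T24R2 replicate 5 (p = 0.0476), none after adjustment. The cause of these changes was not tested. The replicate block gave 0 regions for presence, since the smallest p of a paired sign test on 5 pairs is 0.0625, and 0 for adjusted strength. The labels do not say that a replicate number marks a shared day or batch. Same-numbered libraries correlated at r of -0.042 to 0.121 in their deviations, and only replicate 5 correlated best with its own number. Such weak correlations cannot tell whether same-numbered samples were paired. The lists give no depth, and the 10 libraries limit what presence can show, since no region of any gene passed adjustment.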
